A study of Mus musculus with 10 samples.

Results

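The autophagy and lysosome genes described here are 38 genes named by symbol and chosen with earlier results of these data known. They were found by matching the Ensembl identifiers of the deposited table, with version numbers removed, to the GENCODE annotation of the mouse genome GRCm39. All 38 were among the 78298 rows of the table, all 38 were among the 16700 genes abundant enough to test, and their counts ranged from 139 to 33610 in a single library. The samples were hearts of female C57BL/6J mice. By their labels 5 were wild type and 5 came from a p38δ germline knockout, which lacks p38δ (Mapk13), a stress-activated protein kinase, in the whole animal. Every animal had received 1 intraperitoneal injection of doxorubicin, an anthracycline chemotherapy drug that damages heart muscle, at 30 mg/kg, and hearts were taken 72 h later. No undosed heart was analysed, so the values show how these genes stood in treated hearts of either genotype and not what the drug did to them. The labels give no age, litter, cage or batch, so p-values measure only the spread between these samples, and a batch that went with genotype cannot be told apart from it. Sample titles begin with DOXF in every wild-type-labelled and with S in every knockout-labelled sample, and what this naming records is not known here.

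Autophagy encloses cytoplasm in a double membrane, the autophagosome, and delivers it to lysosomes, where acid hydrolases digest it. A kinase complex built around ULK1 starts the process, a lipid kinase complex marks the membrane, and a ubiquitin-like conjugation system attaches small proteins of the Atg8 family, among them LC3 and GABARAP, to it. Heart muscle cells rarely divide and depend on this turnover to renew mitochondria and contractile proteins, and blocked delivery to lysosomes has been described in anthracycline-treated heart cells. The transcription factors TFEB and TFE3 switch on many of these genes by binding E-box sites, written CACGTG, near their starts.

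That E-box core was sought from 250 bases before to 50 after the start of the canonical transcript of each gene, as GENCODE marks it, in the GRCm39 genome. That start need not be the outermost annotated one: those of Rubcn, Atg14, Atg5, Ctsb and Gaa lie inside the annotated span of the gene. The motif reads the same on both strands. It was found in 9 of the 38 genes (23.7%), against 9.78% of 13356 tested protein-coding genes. The longer form TCACGTGA, which contains the core, was in 2 of the 38 (5.26%) and in 1.58% of the protein-coding genes. Lamp1 held 4 cores, Mcoln1 held 2, and Atg5, Atg14, Ctsb, Ctsd, Gaa, Gabarap and Rubcn held 1 each. The sites below are shown because they tell the genes with a core from those without one when the fold changes are compared. Each is 30 bases in the direction of transcription, with the longer of the 2 motif forms in capitals. The motifs shown for Ctsb and Mcoln1 lie after the canonical start, in transcribed sequence, and the others begin before it. For Lamp1 and Mcoln1 1 of the sites is shown.
Lamp1, chr8:13209088-13209117, plus strand: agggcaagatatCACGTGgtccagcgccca
Mcoln1, chr8:3550462-3550491, plus strand: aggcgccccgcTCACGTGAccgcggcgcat
Ctsb, chr14:63359879-63359908, plus strand: gcggtcaagcaTCACGTGAcgaatcagccc
Ctsd, chr7:141941792-141941821, minus strand: tcttccttccccCACGTGacctgtatccag
Gaa, chr11:119158637-119158666, plus strand: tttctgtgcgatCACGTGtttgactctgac
Gabarap, chr11:69881834-69881863, plus strand: ttcgccacccgcCACGTGattctccgccct
Rubcn, chr16:32688807-32688836, minus strand: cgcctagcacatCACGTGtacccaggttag
Atg14, chr14:47805875-47805904, minus strand: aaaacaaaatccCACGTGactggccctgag
Atg5, chr10:44144309-44144338, plus strand: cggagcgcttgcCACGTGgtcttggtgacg
A match of letters is a description of the sequence and not a measured binding site.

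The libraries held 22082289 to 40627138 counts where labelled wild type and 21403189 to 33477767 where labelled knockout. Mapk13 itself did not check the labels: its counts were 292, 5, 2, 1 and 4 in libraries 1 to 5 labelled wild type, compared with 12, 10, 10, 15 and 9 in those labelled knockout. Genotypes are therefore given as labelled. Markers of ventricular heart muscle summed to between 18460 and 55790 CPM (counts per 1e6 library counts, scaled by TMM factors) in the 10 hearts, and all 8 were detected. Library 1 labelled wild type stood apart. It had the lowest ventricular sum, 849 CPM of airway and alveolar markers, 468 CPM of fast skeletal muscle markers and 543 CPM of macrophage markers, against at most 75.9, 9.02 and 192 CPM in the other libraries. Its sums were also the highest for markers of fibroblasts (1307 CPM), atrial muscle (1309 CPM), fat (244 CPM) and mesothelium (84.0 CPM), against at most 818, 281, 40.5 and 29.0 CPM elsewhere. The atrial marker Myl7 had 7890, 984, 55, 11 and 17 counts in wild-type-labelled libraries and 2, 4, 3, 11 and 11 in knockout-labelled ones. Sln had 4742, 677, 58, 3 and 0 against 1, 2, 0, 0 and 0 counts. Nppa stood at 31.2 CPM or more in every heart. How much atrial tissue each sample held was not tested. Library 4 labelled knockout had the highest ventricular sum, with 24290 CPM from Myh6, though Tnnt2 and Pln were highest in other libraries. These 2 libraries were the highest or the lowest of the 10 in many genes: library 1 labelled wild type was highest for 27.8% and lowest for 22.5% of all tested genes, and library 4 labelled knockout for 16.6% and 17.8%.

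None of the 38 genes passed the test of knockout against wild type (edgeR quasi-likelihood test, Benjamini-Hochberg adjusted over all 16700 genes at 0.05, n = 5 per group), where 0.353% of all tested genes did (0.240% higher and 0.114% lower in knockout). Before adjustment 2 of the 38 had p under 0.05, Atg3 and Rubcn, against 6.86% of all tested genes. Library 1 labelled wild type was the highest heart for Atg3 and the lowest for Rubcn. Without that library 0 of the 38 had p under 0.05 by edgeR, where 1013 of 16829 tested genes did. In 0 of the 38 did all 5 hearts of a group lie above all 5 of the other, against 1.78% of all genes (0.880% with knockout higher and 0.898% with knockout lower). The median log2 fold change of knockout over wild type was -0.02, with 14 genes above and 24 below 0. Over all tested genes the median was -0.01, with 53.4% below 0. DESeq2 and limma voom with quality weights also called 0 of the 38, and had 2 and 1 genes with p under 0.05.

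The spread between hearts was small enough to bound most of these differences. The 95% interval of the fold difference, approximated from the standard error of the edgeR fit, lay within 1.5-fold in either direction for 36 of the 38 genes, as it did for 59.1% of all tested genes. The exceptions were Atg13, with an interval from 0.658 to 1.26 times the wild-type level, and Ctsz, with 0.465 to 1.19. The interval of Lamp1 ran from 0.86 to 1.09 and that of Atg12 from 0.905 to 1.079, both among the narrower ones. The median SD between hearts on the scale of log2(CPM + 1) was 0.126 for wild type and 0.107 for knockout, as labelled, against 0.179 and 0.167 over all tested genes, a comparison not matched for expression level.

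**Figure D1:**
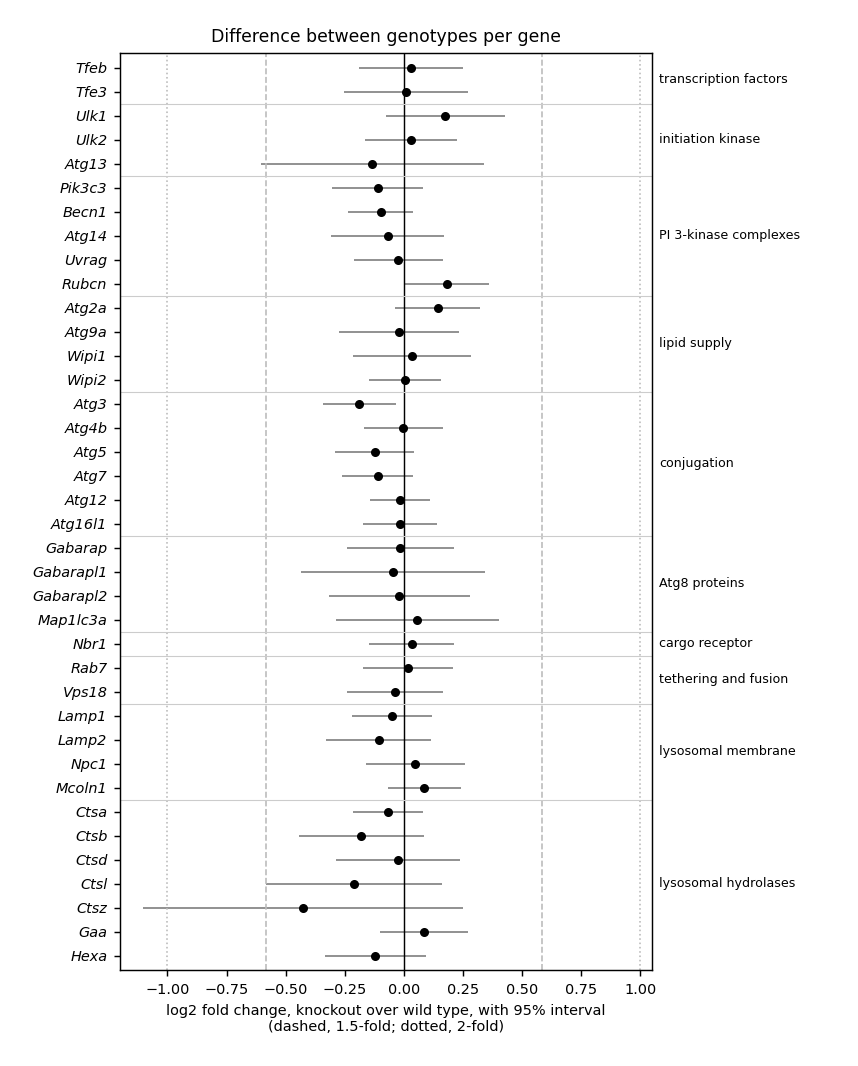
Log2 fold change of knockout over wild type (horizontal axis) for the 38 genes, grouped by role, with approximate 95% intervals from the edgeR fit (n = 5 per group). Dashed lines mark 1.5-fold and dotted lines 2-fold. The intervals of Atg13 and Ctsz pass a dashed line, and those of Atg3 and Rubcn exclude 0 before adjustment.

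The genes differed far more from each other than between genotypes. Per kilobase of merged exons in the wild-type-labelled hearts, Ctsd, the aspartic protease cathepsin D, was the most abundant at 312 ± 31.8 CPM per kilobase (SD, n = 5), followed by Map1lc3a, which encodes an LC3 protein, at 177 ± 33.4. Lamp1, the main structural glycoprotein of the lysosomal membrane, stood at 69.5 ± 2.59 and Gabarap at 59.5 ± 5.18. At the other end were Vps18 at 0.961 ± 0.0828, Uvrag at 1.28 ± 0.0658, Tfe3 at 1.41 ± 0.235 and Tfeb at 1.48 ± 0.0763 CPM per kilobase, the last 3 separated by little more than their spread. The ratio of the highest to the lowest level was 325. In the knockout-labelled hearts the same ends held, with Ctsd at 306 ± 33.5 and Vps18 at 0.937 ± 0.0654 CPM per kilobase. Merged exons overstate the length of a gene whose longest transcripts are rare, so these levels are approximate.

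**Figure D2:**
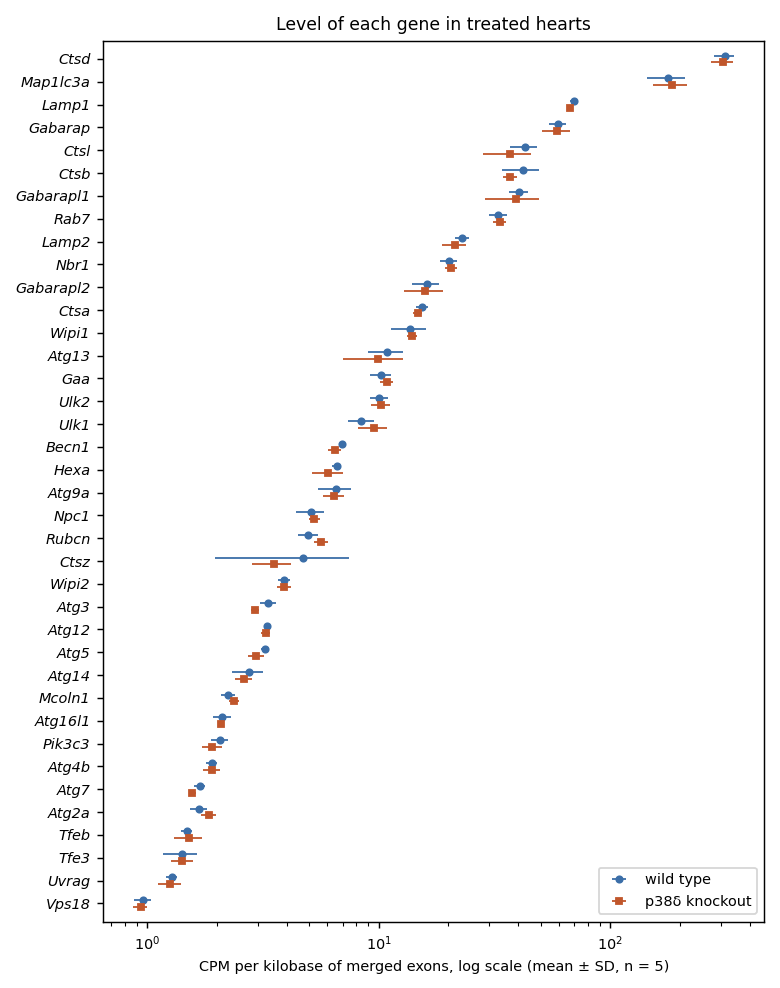
Mean level with SD of each of the 38 genes in CPM per kilobase of merged exons (horizontal log axis), ordered by the wild-type mean, in wild-type-labelled (circles) and knockout-labelled hearts (squares), n = 5 each. Ctsd and Map1lc3a lie at the top and Vps18 at the bottom in both groups, and Atg3 is the 1 gene whose SD bars do not overlap.

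Tfeb (chromosome 17, 48047837 to 48103348, GRCm39) encodes the factor regarded as the main activator of lysosomal genes. It stood at 9.53, 10.4, 10.8, 9.77 and 10.4 CPM in wild-type-labelled libraries 1 to 5 and at 9.99, 12.6, 9.04, 10.9 and 9.40 CPM in knockout-labelled libraries 1 to 5. The knockout range enclosed the wild-type range, and the log2 fold change was 0.03 with a standard error of 0.10 (adjusted p = 0.964 by edgeR). Tfeb is the 1 member located on chromosome 17, which also carries Mapk13 with a start 19.1 Mb away. On that chromosome 45 of 827 tested genes were called (5.44%), against 0.0882% of the 15873 tested genes elsewhere. Tfe3, its relative on the X chromosome, stood at 16.8, 12.4, 10.9, 12.4 and 13.2 CPM in the wild-type-labelled and 13.97, 15.4, 12.4, 11.65 and 12.9 CPM in the knockout-labelled libraries, again with overlapping groups (log2 fold change 0.01). These are transcript levels. TFEB and TFE3 are controlled largely by phosphorylation and entry into the nucleus, which were not measured.

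The 9 genes with an E-box core, listed above with their sites, had log2 fold changes from -0.18 to 0.18 and a median of -0.03. The 29 without one ranged from -0.43 to 0.18 with a median of -0.02, and 0 genes of either kind were called.

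Ulk1, the kinase that starts autophagosome formation, stood at 50.1, 66.0, 72.2, 62.1 and 63.1 CPM in the wild-type-labelled libraries. In the knockout-labelled libraries it stood at 67.9, 64.3, 68.9, 88.9 and 63.9 CPM. The groups overlapped apart from 1 low wild-type-labelled and 1 high knockout-labelled heart, libraries 1 and 4 in turn. The log2 fold change was 0.18 with a standard error of 0.11 (adjusted p = 0.766 by edgeR), and 0.01 without those 2 libraries. Its paralogue Ulk2 had 87.6 ± 7.80 against 89.5 ± 8.21 CPM (SD, n = 5 each). Atg13, a scaffold subunit of the same complex, stood at 80.4, 118, 133, 122 and 112 CPM in the wild-type-labelled and 133, 116, 106, 53.4 and 106 CPM in the knockout-labelled ones. Library 4 labelled knockout thus had the highest Ulk1 and the lowest Atg13 of the 10 hearts. The log2 fold change of Atg13 was -0.13 over all 10 and 0.03 without that library.

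In the class III phosphatidylinositol 3-kinase complexes, which mark the growing membrane, Rubcn had the smallest p. It encodes Rubicon, a partner of UVRAG and Beclin 1 known as a brake on autophagosome maturation. Its levels were 32.8, 42.9, 37.7, 36.4 and 39.3 CPM in the wild-type-labelled and 45.7, 44.1, 38.5, 41.1 and 45.3 CPM in the knockout-labelled libraries. Of the knockout-labelled hearts 3 lay above every wild-type-labelled one, and the other 2 overlapped with the wild-type range. The means were 37.8 ± 3.72 and 42.9 ± 3.07 CPM, a log2 fold change of 0.18 with a standard error of 0.08 (adjusted p = 0.714 by edgeR). It was above 0 in all 18 alternative analyses, from 0.09 to 0.23, and passed in none (lowest adjusted p = 0.59). Becn1, which encodes the scaffold Beclin 1, stood at 53.4, 50.6, 50.8, 50.9 and 49.1 against 51.1, 46.7, 49.6, 42.8 and 48.2 CPM, with the 3 lowest values in knockout-labelled hearts and a log2 fold change of -0.10 (adjusted p = 0.766). The catalytic subunit gene Pik3c3 had 21.9 ± 1.93 against 20.2 ± 2.002 CPM, the targeting subunit gene Atg14 13.7 ± 2.11 against 13.01 ± 1.13 CPM, and Uvrag 22.5 ± 1.16 against 22.1 ± 2.54 CPM. Uvrag shares short stretches of 95% identity or more with several other genes, Tsc2 (226 bases) and Klhl20 (344 bases) among them. Its merged exons span 17622 bases, and counts from the shared stretches are less certain.

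Genes for lipid supply and the early membrane showed the same overlap. Atg2a, which encodes a lipid transfer protein, stood at 14.6, 14.4, 17.6, 15.5 and 15.8 CPM in the wild-type-labelled and 17.6, 16.0, 17.2, 19.2 and 16.1 CPM in the knockout-labelled libraries, a log2 fold change of 0.14 with adjusted p = 0.75 in edgeR. Wipi1, a reader of the lipid mark, stood at 57.0, 84.5, 88.3, 90.4 and 76.2 against 82.1, 75.3, 78.6, 84.6 and 84.8 CPM. The low wild-type-labelled value was library 1, and the remaining 9 hearts lay between 75.3 and 90.4 CPM. Wipi2, the family member that recruits ATG16L1, had 42.2 ± 2.59 against 42.4 ± 2.91 CPM, and the scramblase gene Atg9a 47.6 ± 7.61 against 46.9 ± 4.86 CPM.

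The conjugation genes were the least variable between hearts, with a median SD on the log2(CPM + 1) scale of 0.0742 for wild type and 0.058 for knockout, the lowest of the role groups in both. Atg3, which encodes the E2-like enzyme that attaches Atg8 proteins to lipid, had the smallest p of the 38 genes. It stood at 28.8, 23.5, 26.3, 24.4 and 24.3 CPM in the wild-type-labelled libraries and at 21.4, 21.7, 22.3, 22.8 and 23.5 CPM in the knockout-labelled ones. The groups met at 1 point, where the highest knockout-labelled heart lay just above the lowest wild-type-labelled one. The log2 fold change was -0.19 with a standard error of 0.07 (adjusted p = 0.665 by edgeR). Over the 18 alternatives it ranged from -0.30 to -0.14, and the lowest adjusted p was 0.525, with DESeq2. Atg5, part of the E3-like complex with ATG12, stood at 13.95, 12.4, 13.3, 13.3 and 13.6 against 11.5, 13.8, 11.7, 12.3 and 11.8 CPM, with 1 knockout-labelled heart near the top of the wild-type range. Atg7, the E1-like enzyme gene, had 14.1 ± 0.75 against 13.02 ± 0.446 CPM. Atg12, Atg16l1 and the protease gene Atg4b differed by less, with log2 fold changes of -0.02, -0.02 and -0.00239. Summed over the 6 genes, the level was 125 to 131 CPM in the wild-type-labelled and 119 to 123 CPM in the knockout-labelled hearts. The sums did not overlap, which held with median-ratio scaling and not with scaling to library totals only (122 to 166 against 109 to 123 CPM). This sum was looked at after the values were seen and has no test, and the sums of the other 9 role groups overlapped. Summed markers of fibroblasts (691 to 1307 against 584 to 651 CPM) and of mesothelium (22.8 to 84.0 against 11.4 to 21.9 CPM) were also lower in every knockout-labelled heart. The fibroblast sum was mostly Dcn (773 ± 244 against 558 ± 33.5 CPM). Pdgfra and Tcf21 overlapped, and the mean of Col1a1 was higher in knockout (13.8 ± 7.12 against 15.8 ± 4.86 CPM). Of the mesothelium markers only Upk3b did not overlap. The part of these cell types in the conjugation sums was not tested.

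Single hearts stood out among the 4 genes of the Atg8 family. Map1lc3a stood at 164, 254, 282, 241 and 224 CPM in the wild-type-labelled and 286, 243, 249, 175 and 260 CPM in the knockout-labelled libraries. Gabarapl1, of the GABARAP subgroup, stood at 131, 165, 159, 153 and 138 against 180, 155, 146, 80.7 and 162 CPM. Library 1 labelled knockout was the highest of the 10 for all 4 genes, with Gabarap at 161 CPM and Gabarapl2 at 87.6 CPM. Library 4 labelled knockout was the lowest of the 10 for Gabarapl1 and, at 50.9 CPM, for Gabarapl2. Library 1 labelled wild type was lowest for Map1lc3a. The family summed to 425 CPM in library 4 labelled knockout, 469 CPM in library 1 labelled wild type, while the other 8 hearts had 561 to 714 CPM. The log2 fold changes were 0.06 for Map1lc3a, -0.04 for Gabarapl1, -0.02 for Gabarap and -0.02 for Gabarapl2, with adjusted p from 0.956 to 0.985 by edgeR. Without library 4 labelled knockout those of Map1lc3a and Gabarapl1 were 0.15 and 0.11. Gabarapl2 has 3 annotated processed pseudogenes at 95% identity or more, which together drew few reads (195, 41 and 0 counts against 21697 for the parent).

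**Figure D3:**
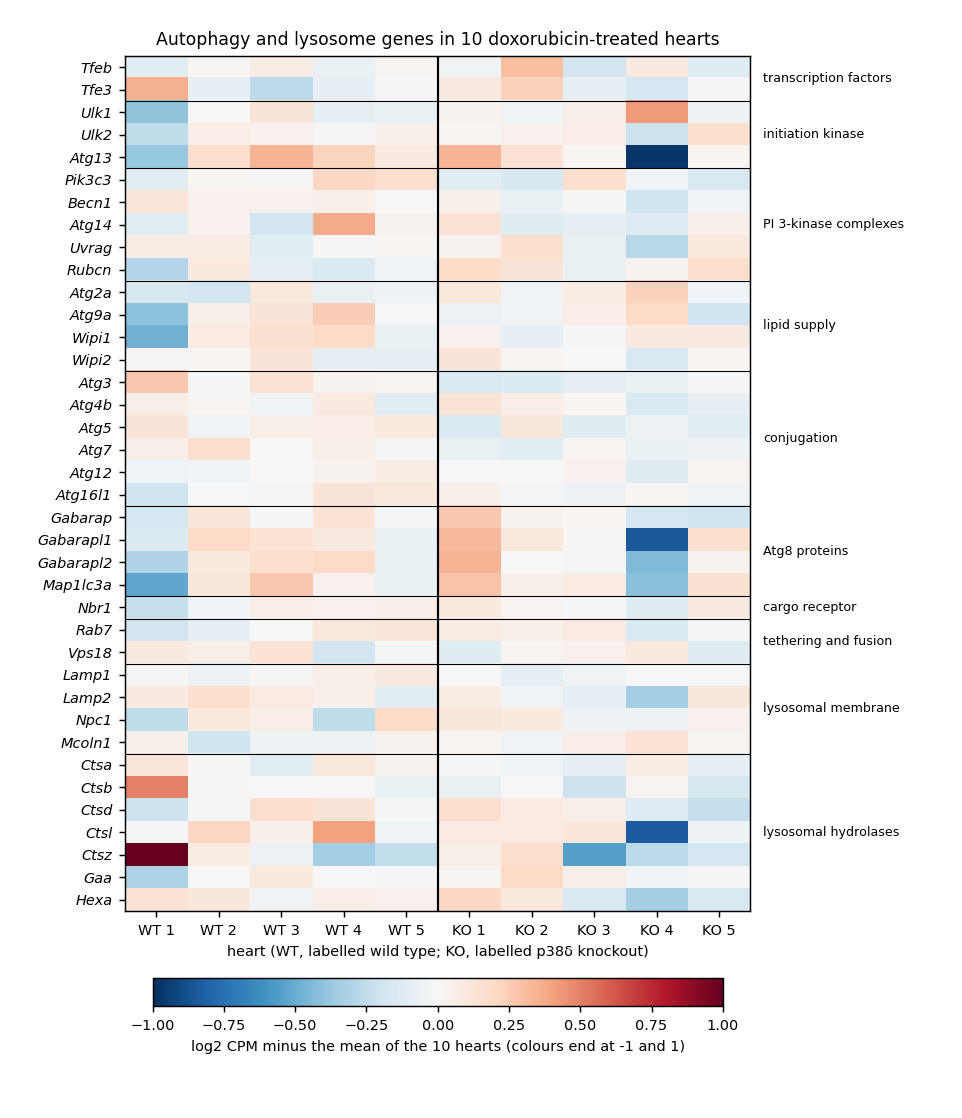
Level of each of the 38 genes (rows, grouped by role) in each of the 10 hearts (columns), as log2 CPM minus the mean of the 10 hearts. The darkest cells are Ctsz high in library 1 labelled wild type and Atg13, Gabarapl1 and Ctsl low in library 4 labelled knockout, and all 6 conjugation genes have a lower mean CPM to the right of the line between genotypes.

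**Figure D4:**
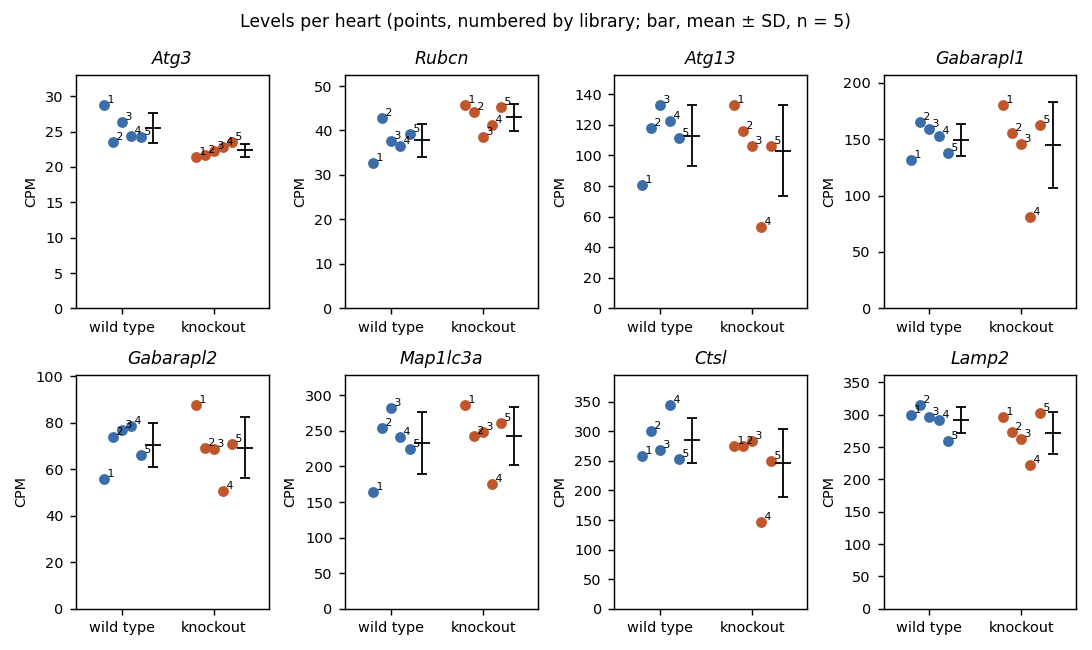
CPM (vertical axes from 0) of 8 genes in each heart, numbered by library, with mean ± SD (n = 5 per group). Library 4 labelled knockout is the lowest point for Atg13, Gabarapl1, Gabarapl2, Ctsl and Lamp2, and Atg3 and Rubcn show the largest shifts relative to spread.

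Nbr1, a cargo receptor for ubiquitin-marked protein aggregates, stood at 136, 156, 166, 163 and 165 CPM in the wild-type-labelled and 170, 162, 158, 146 and 169 CPM in the knockout-labelled libraries, a log2 fold change of 0.03 (adjusted p = 0.95 by edgeR). Rab7, the GTPase of late endosomes, stood at 185, 197, 208, 225 and 227 against 220, 218, 221, 188 and 207 CPM. Vps18, a subunit of the tethering complexes that dock vesicles to lysosomes, stood at 8.11, 7.95, 8.42, 6.69 and 7.56 against 7.004, 7.75, 7.85, 8.17 and 7.01 CPM. In all 3 the ranges of the groups largely coincided. A processed pseudogene of Rab7 held 261 counts against 65436 for the parent.

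Of the lysosomal membrane genes, Lamp1 had 362 ± 13.5 against 350 ± 9.47 CPM. Lamp2, the other major membrane glycoprotein, whose loss causes a cardiomyopathy in humans (Danon disease), stood at 299, 314, 297, 291 and 260 CPM in the wild-type-labelled and 296, 274, 263, 222 and 303 CPM in the knockout-labelled libraries. Its lowest value was again library 4 labelled knockout, and the log2 fold change was -0.11 (adjusted p = 0.847 by edgeR). The isoforms of Lamp2 are not resolved by counts per gene. Mcoln1, the lysosomal calcium release channel, stood at 18.5, 15.5, 17.3, 17.3 and 18.3 against 18.2, 17.4, 18.7, 19.7 and 18.2 CPM (log2 fold change 0.09, adjusted p = 0.818). Npc1, which exports cholesterol from lysosomes, had 58.2 ± 8.204 against 60.2 ± 3.21 CPM.

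Among the hydrolases 6 of 7 had a log2 fold change below 0, against 53.4% of all tested genes, and 0 passed. Ctsb, a cysteine protease gene, stood at 425, 296, 299, 301 and 285 CPM in the wild-type-labelled and 285, 300, 260, 305 and 269 CPM in the knockout-labelled libraries. Ctsz, another cysteine protease gene, stood at 35.5, 14.96, 13.7, 11.3 and 12.01 against 14.8, 16.1, 9.71, 11.9 and 12.6 CPM. In both the wild-type mean was raised by library 1, and the other 9 hearts overlapped. Their log2 fold changes were -0.18 and -0.43 with all hearts (adjusted p = 0.769 and 0.786 by edgeR) and -0.05 and 0.01 without that library. As with the markers of airway, skeletal muscle, fibroblasts, atrial muscle, fat and mesothelium, all 11 macrophage markers were at their highest there, where they summed to 543 CPM, against 125 to 192 CPM in the other wild-type-labelled and 128 to 174 CPM in the knockout-labelled hearts, and none of the 11 was at 0 throughout. The part of these cell types in the Ctsb and Ctsz values was not tested. In bulk tissue fewer cells of a type and less RNA per cell cannot be told apart. Ctsd did not follow these markers, at 738, 844, 962, 931 and 839 CPM in the wild-type-labelled and 949.5, 902, 884, 777 and 726 CPM in the knockout-labelled libraries. A readthrough gene that overlaps Ctsd, Gm49369, held 2.39% as many counts.

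**Figure D5:**
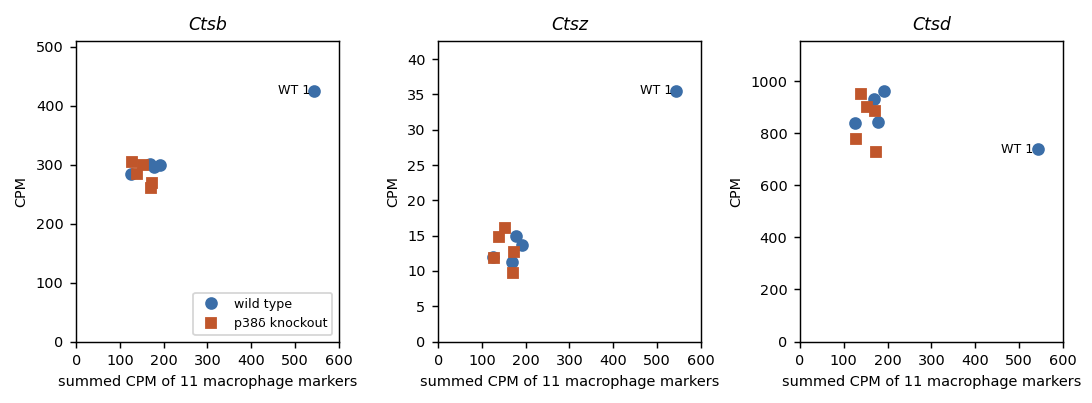
CPM of Ctsb, Ctsz and Ctsd in each heart against the summed CPM of 11 macrophage markers, with wild-type-labelled hearts as circles and knockout-labelled hearts as squares. Library 1 labelled wild type lies apart at 543 CPM of markers, high for Ctsb and Ctsz and among the lower hearts for Ctsd.

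Ctsl, the cysteine protease cathepsin L, was low in a single heart. It stood at 259, 300.1, 269, 344 and 253 CPM in the wild-type-labelled libraries and 275, 275, 283, 147 and 251 CPM in the knockout-labelled ones, with library 4 far below the other 9. The log2 fold change was -0.21 with a standard error of 0.17 (adjusted p = 0.812 by edgeR) and -0.07 without that library. Hexa, a hexosaminidase subunit gene, was lowest in the same heart at 27.4 CPM and had 36.1 ± 1.69 against 33.2 ± 5.02 CPM. Gaa, the acid α-glucosidase that degrades lysosomal glycogen and is deficient in Pompe disease, had 96.5 ± 9.64 against 102 ± 6.70 CPM, and the carboxypeptidase gene Ctsa 79.4 ± 5.03 against 75.8 ± 3.63 CPM. In all, library 4 labelled knockout was the lowest of the 10 hearts for 11 of the 38 genes and the highest for 3, and library 1 labelled wild type was lowest for 11 and highest for 7.

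The rest of the pathway was read from 7 lists of 165 further genes, of which 164 were tested. None passed, with 8 at p under 0.05 before adjustment, a share of 4.88% against 6.86% of all tested genes. The median log2 fold change was -0.04, with 68 genes above and 96 below 0, where 53.4% of all tested genes lay below 0. By list the medians were 0.05 for 23 other autophagy genes, -0.07 for 16 subunits of the vacuolar ATPase, which acidifies lysosomes, and -0.12 for 44 other hydrolases and their activators. They were -0.02 for 25 membrane and transport genes, -0.01 for 20 tethering and fusion genes, 0.01 for 27 genes of nutrient signalling to TFEB and ULK1, and -0.06 for 9 genes of mannose 6-phosphate sorting. Of the 44 hydrolases and activators, 24 were at their highest in library 1 labelled wild type, against 27.8% of all tested genes. The part of that library in their median was not tested. Among the 2 genes of each list with the smallest p were Tecpr2 and Epg5 (log2 fold changes 0.14 and 0.13), Atp6v0c and Atp6v1b2 (-0.21 and -0.17), Idua (0.21), Abcb9 and Cd63 (0.42 and -0.11), Borcs5 and Ccz1 (0.32 and -0.18), Prkag1 and Mtor (0.25 and 0.13), and Gnptg and Sort1 (-0.34 and -0.36). Their adjusted p ranged from 0.616 to 0.766 by edgeR.

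Map1lc3b and Sqstm1, chosen after their values were seen, are the usual markers of autophagosomes and their cargo. Map1lc3b stood at 225, 326, 278, 282 and 262 CPM in the wild-type-labelled and 322, 296, 269, 178 and 307 CPM in the knockout-labelled libraries (log2 fold change -0.00136). Sqstm1, which encodes the receptor p62, stood at 409.6, 619, 640, 653 and 540.4 against 657, 560.3, 535, 366 and 576 CPM, a log2 fold change of -0.09 with adjusted p = 0.932 in edgeR. Library 4 labelled knockout was the lowest of the 10 and library 1 labelled wild type the next lowest for both.

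Atp6v0c, the proton-conducting ring subunit of the vacuolar ATPase, was the 1 gene of the members and lists together in which the groups did not overlap, where 1.78% of all tested genes did not. It is on chromosome 17 and stood at 67.9, 66.3, 74.7, 72.6 and 63.7 CPM in the wild-type-labelled and 62.0, 62.4, 56.7, 63.2 and 53.4 CPM in the knockout-labelled libraries (log2 fold change -0.21, adjusted p = 0.616 by edgeR). Its processed pseudogene Atp6v0c-ps2 on chromosome 6 is 98.9% identical over 469 bases and stood at 0.470 ± 0.163 against 7.89 ± 0.924 CPM (adjusted p = 1.53e-06 by edgeR). It was picked with its values known. Reads can be shared between such copies. With the 2 annotated copies added, Atp6v0c stood at 69.5 ± 4.54 against 67.4 ± 4.94 CPM, the groups overlapped, and the log2 fold change was -0.04 (adjusted p = 0.919).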

How the data were processed

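Transcripts were measured by bulk RNA sequencing of heart tissue, in which atrial muscle markers differed widely between the samples. Per the labels' protocols, a sequencing provider prepared the libraries and STAR 2.5.2 aligned the reads to GRCm39. The submitters' processing notes name RSEM 1.3.0, whose expected counts the authors deposited, here whole numbers in all 78298 rows. Strand setting, trimming and annotation release: not given in the sources used here, so overlapping and antisense genes are uncertain. Symbols, positions and merged exon lengths came from GENCODE for GRCm39, which held 78168 of the identifiers. Groups followed the genotype label.

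Knockout and wild type were compared in edgeR 4.0.16 (R 4.3.3) by its quasi-likelihood test, after TMM scaling and filtering by its default (minimum count of 10), with robust dispersions and Benjamini-Hochberg adjustment at 0.05 over 16700 genes. Standard errors were derived from each log2 fold change and its F statistic. Intervals are 95% intervals from them and from the fit's degrees of freedom. CPM used TMM factors. The fit was tested on simulated data, with an outcome that is not reported here and is not used as support. Of 20 within-group pairs of libraries, each differed by more than sampling noise (chi-square per degree of freedom at least 8.59). Near-identical copies were sought by BLAST at 95% identity over at least 200 bases. Alternatives were DESeq2 1.42.0, limma 3.58.1 voom with quality weights, 2 scalings, 2 filters, leaving out mitochondrially encoded genes, each library, and 2 libraries together. Adding the copies to Atp6v0c was chosen after seeing the data. Members, lists and alternatives were chosen with earlier results of these data known. All members were named, and values per heart were given at least for the 2 of each role with the smallest p. From each further list the 2 genes with the smallest p were named, except for 1 result that is not reported here. Map1lc3b, Sqstm1, Ctss and Atp6v0c-ps2 were named after their values were seen. Vamp7, which is on a list, was not analysed here.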

Additional observations from a re-analysis of the deposited data

Results flagged for a closer look

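Within groups of 5 hearts, 1 heart lay far from the other 4 (gap to its neighbour over the whole range above 0.71) in 10 of 108 groups examined, 6 of them among the 76 groups of the 38 genes. For independent, normally distributed values about 1 in 20 groups is found this way. The groups here share the same libraries and include genes chosen by their values, so that rate cannot be set against these counts. Library 1 labelled wild type was high for Ctsb at 425 CPM (others of its group 285 to 301), for Ctsz at 35.5 CPM (11.3 to 14.96), and for 2 further genes, Ctss at 36.7 CPM (6.07 to 12.9) and the sorting receptor gene Sort1 at 80.0 CPM (37.97 to 46.8). It was low for Ulk2 at 73.9 CPM (89.2 to 92.6). Library 4 labelled knockout was low for Ctsl at 147 CPM (251 to 283) and Atg12 at 25.8 CPM (28.1 to 28.9), and high for Ulk1 at 88.9 CPM (63.9 to 68.9) and for Prkag1, a subunit gene of the energy-sensing kinase AMPK, at 93.2 CPM (68.9 to 75.1). Library 2 labelled knockout was high for Ctss at 15.3 CPM (7.67 to 9.04). The same library had the highest summed neutrophil markers (17.7 CPM, at most 12.65 elsewhere). Its T cell and thymus markers were also highest (6.65 CPM, at most 1.43 elsewhere), with macrophage markers at 153 CPM. The part of these cells in its Ctss value was not tested. Ctss, a protease gene of macrophages and other antigen-presenting cells, was chosen after its values were seen, and without library 1 labelled wild type its log2 fold change went from -0.67 to -0.05.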

How the results depend on the processing

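In all 18 alternatives 0 of the 38 genes and 0 of the 164 further pathway genes were called, and the lowest adjusted p of any of the 38 was 0.525. The sign was the same in every alternative for 15 of the 38. Over all genes 59 were called, against 118 with DESeq2, 91 with voom and quality weights, and 47 to 75 when 1 library was left out. Scaling by library totals alone moved the median of all genes from -0.01 to -0.12 (log2), that of the 38 genes to -0.12 with 3 above and 35 below 0, and that of the further pathway genes to -0.14. Leaving out 1 library at a time gave medians of -0.046 to 0.015 for the 38 genes and -0.046 to -0.0087 for the further genes. The upper bound for the 38 came without library 4 labelled knockout, when 22 lay above and 16 below 0, and the cause was not tested. The value nearest 0 for the further genes came without library 4 labelled wild type, and the cause was not tested. No paired analysis was possible because the titles of the 2 groups share no replicate numbers. With 5 hearts per group the intervals of Atg13 and Ctsz do not bound a 1.5-fold difference, and counts per gene do not show autophagic flux, protein levels or isoforms.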

Other observations

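Outside the 38 genes, E-box sites were counted near the starts of the further pathway genes. The core CACGTG was in 36 of 164 (22.0%, against 9.78% of tested protein-coding genes) and TCACGTGA in 16 (9.76%, against 1.58%). Among the further genes, library 1 labelled wild type was the highest of the 10 hearts for 48 and the lowest for 40, library 4 labelled wild type the highest for 29, and library 4 labelled knockout the highest for 28 and the lowest for 26. Of the further pathway genes 9 lie on chromosome 17, and 0 of them were called.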
